A study of Homo sapiens with 5 samples.

Results

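The regions described here are strong O-GlcNAc peaks of human chromatin at which neither ASXL1 nor FOXK1 had a listed peak. They were chosen from the O-GlcNAc list on chromosomes 1 to 22 and X by a peak score of at least 100 and by an overlap of not even 1 bp with any peak of the ASXL1 or FOXK1 lists. The rule found 3829 such lone strong peaks among 16664 strong O-GlcNAc peaks (23.0%), 78825 O-GlcNAc peaks in all and 194759 peaks of the 3 lists together. The score and the overlap are therefore given as descriptions of how the regions were chosen. Of all O-GlcNAc peaks on these chromosomes, whatever their score, 70.1% were alone.

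The lists came from chromatin immunoprecipitation with sequencing (ChIP-seq). The cells were Flp-In HEK293 T-REx, an embryonic kidney line made for inducible transgenes, grown without any treatment that the labels name. Antibodies against O-GlcNAc and ASXL1 were used on chromatin preparation 63 and an antibody against FOXK1 on preparation 62, each list being called against the input of its own preparation. Each antibody had 1 library of 1 cell line, so no value has a replicate error and no p-value is given. Sequencing depth is unknown, and a region without a listed ASXL1 or FOXK1 peak is one where none passed the lowest listed score of 50, not one shown to lack the protein. Intervals in brackets are 95% Wilson intervals of a share of peaks and cover counting error only.

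O-GlcNAc is a single sugar that the enzyme OGT attaches to serine and threonine residues of nuclear and cytoplasmic proteins and that the enzyme OGA removes. Many chromatin proteins carry it, among them RNA polymerase II, transcription factors, Polycomb proteins and the cofactor HCF-1, so an antibody against the sugar can recover DNA bound by any of them. OGT and HCF-1 are partners of the deubiquitinase BAP1, whose complex also holds ASXL proteins and the forkhead factors FOXK1 and FOXK2. Of these partners only ASXL1 and FOXK1 were mapped here, so a lone peak lacks a call for those 2 and says nothing of the others.

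Most of the strong O-GlcNAc list did overlap a partner. Of the 16664 strong peaks, 7803 (46.8%) overlapped ASXL1 alone, 4477 (26.9%) overlapped ASXL1 and FOXK1, and 555 (3.33%) overlapped FOXK1 alone. These 12835 peaks are called shared below. The lone peaks lay mainly at the low end of the strong scores. Their median score was 115 (quartiles 105 and 136), against 219 (138 and 457) for the shared strong peaks. Of the lone peaks, 3160 (82.5%) scored under 150, 587 (15.3%) from 150 to under 500, and 82 (2.14%) at least 500. Of the shared strong peaks, 22.7% scored at least 500. Of all O-GlcNAc peaks, most of which scored under 100, 3.81% did.

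The lone share of O-GlcNAc peaks was lower in each higher class of score. It was 86.9% (86.5 to 87.4) for scores from 50 to under 60, 57.2% (55.3 to 59.2) from 100 to under 110, and 15.004% (13.6 to 16.5) from 150 to under 200. It was 2.10% (1.43 to 3.09) for scores of 1000 or more, which left 25 lone peaks among 1189. No step appeared at the threshold. On its inner side, the lone peak at chr13:36073904-36074104 (hg19) scored 100.01, and those at chr12:16367325-16367543, chr12:41406709-41406927, chr12:76202978-76203196 and chr5:117008647-117008865 scored 100.02. On its outer side, chr1:233786101-233786379 and chr13:70444255-70444533 scored 99.99, chr3:13933130-13933443 scored 99.98, and chr17:2689444-2689986 and chr6:2965116-2965459 scored 99.96.

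**Figure D1:**
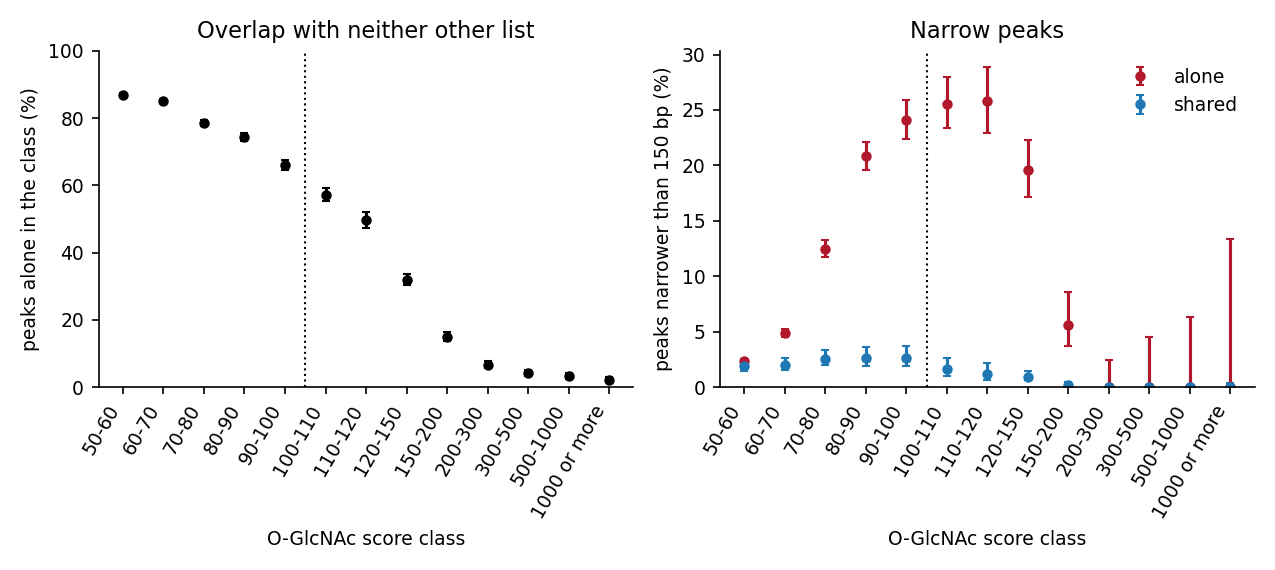
Left, share of O-GlcNAc peaks that overlapped neither ASXL1 nor FOXK1 (%) in 13 classes of score. Right, share of peaks narrower than 150 bp (%) among lone and shared peaks of the same classes. Bars are 95% Wilson intervals and dotted lines mark the score of 100. The lone share is lower in each higher class, from 86.9% to 2.10%, and narrow peaks are more frequent among lone than among shared peaks from 60 to under 200, with 25.8% against 1.19% in the class from 110 to under 120.

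Lone strong peaks were narrower than shared ones and fell into more than 1 kind by width. Their median width was 266 bp (quartiles 173 and 358), against 622 bp for shared strong peaks and 214 bp for lone peaks that scored under 100. At like scores the contrast was smaller, with medians of 245 bp for lone and 429 bp for shared peaks from 100 to under 150. From 150 to under 500 they were 366 and 641 bp. The widths of the lone strong peaks had a first maximum from 110 to under 130 bp, with 428 peaks, a minimum of 155 peaks from 150 to under 170 bp, and a broad second maximum from 230 to under 310 bp. Shared strong peaks had no such first maximum. Only 17 lone strong peaks (0.444%) were 1000 bp or wider, against 15.7% of shared strong peaks.

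**Figure D2:**
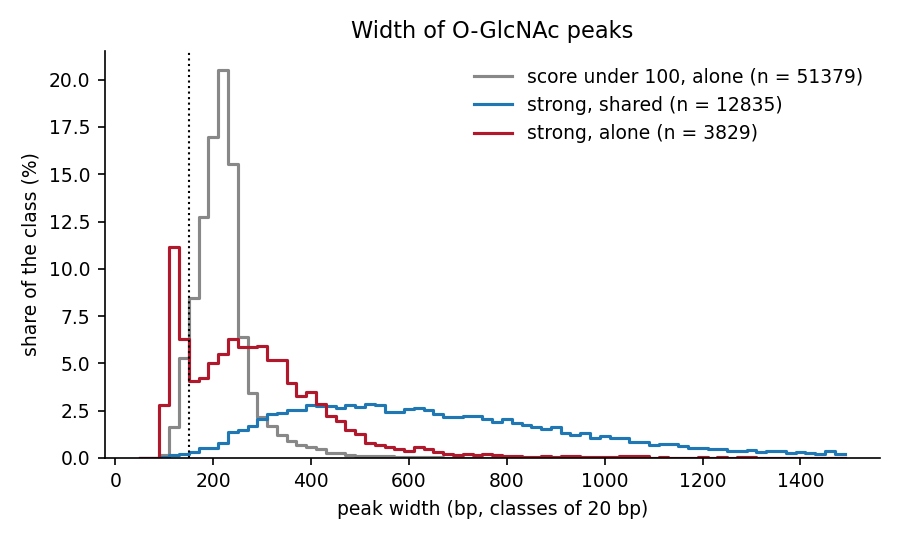
Share of each class of O-GlcNAc peaks (%) by peak width in classes of 20 bp, shown up to 1500 bp, for 3829 lone strong, 12835 shared strong and 51379 lone lower-scoring peaks. The dotted line marks 150 bp. The lone strong peaks have a maximum below 150 bp, and 20.2% of them are narrower than that, while the curve of shared strong peaks has none there.

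The width of 150 bp is also the lower end of the average fragment lengths that the labels give, 150 to 400 bp, and it was used to set the narrow peaks apart after the widths had been seen. Of the lone strong peaks, 774 (20.2%, 18.97 to 21.5) were narrower than 150 bp. Among shared strong peaks 49 were (0.382%, 0.289 to 0.504), among lone peaks of score under 100 the share was 7.03% (6.81 to 7.25), and among all O-GlcNAc peaks it was 5.94%. Narrow peaks were not particular to the strong lone peaks, since just under the threshold they made up 20.8% (19.6 to 22.1) of lone peaks from 80 to under 90 and 24.1% (22.4 to 25.9) from 90 to under 100. The lower pooled share came from the lowest scores, with 2.32% from 50 to under 60. The overlap rule itself favours narrow peaks among the lone ones, because a wider peak meets another list more easily, and its part in the contrast with shared peaks was not tested. From 100 to under 150, 23.9% (22.4 to 25.4) of lone peaks and 1.18% (0.888 to 1.57) of shared peaks were narrow.

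Narrow lone peaks stopped at a score of 200. The narrow peak with the highest score, 197.81, lay at chr4:120207668-120207771 and was 104 bp wide. Of the 314 lone peaks with a score of at least 200, 0 were narrow, which allows a share of up to 0.955% when 3 peaks are taken as the limit of a count of 0, and up to 1.21% by the Wilson interval. In the ASXL1 list from the same preparation, 5.06% (4.71 to 5.43) of strong peaks alone were narrower than 150 bp and 0.263% of those shared with another list. The FOXK1 list from the other preparation held 0 such peaks among 7246 strong ones.

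Narrow lone peaks also repeated the same few scores. The score 101.06 was held by 261 of the 774, 110.93 by 165, 121.05 by 63, 131.40 by 49 and 141.97 by 24, so 5 values covered 72.6% (69.4 to 75.6) of them. The same 5 scores were held by 26 of the 49 narrow shared strong peaks (53.1%, 39.4 to 66.3). Of wider peaks, 2.52% (2.02 to 3.14) of lone and 0.164% (0.107 to 0.251) of shared strong ones held them. The 5 scores were picked as the most frequent among narrow lone peaks and all lie under 150, so these contrasts are descriptions. The 5 most frequent scores of the wider lone peaks themselves covered 4.65% of them, and those of the shared strong peaks 1.26%. The tag numbers and the local background behind these scores, and their part in the narrow peaks, were not tested.

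Narrow lone peaks stood farther from other peaks than wider ones. Their median distance to the nearest other O-GlcNAc peak was 10317 bp, against 6768 bp for lone peaks of 150 bp or more with a score under 500. The nearest ASXL1 peak was a median of 14214 bp away, against 8004 bp, and the nearest FOXK1 peak 52384 bp, against 34892 bp. Within 50 kb on either side, 21.7% (18.9 to 24.7) of narrow lone peaks had no ASXL1 peak, and 9.45% (8.45 to 10.6) of the wider ones had none.

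At the other end stood 82 lone peaks with a score of at least 500, 2.73% (2.21 to 3.38) of the 3000 O-GlcNAc peaks at that level. They had a median width of 451 bp, against 841 bp for the 2918 shared peaks of the same scores. The highest of them lay at chr6:169824994-169826050, was 1057 bp wide and scored 3100. Its nearest ASXL1 peak was 3576 bp away with a score of 56.09, and its nearest FOXK1 peak lay 374624 bp away. Of the 16664 strong O-GlcNAc peaks, 13 had a higher listed score and 47 were listed at exactly 3100. What this repeated value stands for is not known, so the rank of this peak among those highest ones is not known either.

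The next 5 lone peaks by score all lay on the long arm of chromosome 19. The peak at chr19:55690018-55690942 scored 2850.83, and its nearest ASXL1 and FOXK1 peaks were 11250 and 11342 bp away. The peak at chr19:48922442-48922862 scored 2790.95, with ASXL1 18204 bp and FOXK1 25765 bp away. Neither had an ASXL1 or FOXK1 peak within 10 kb, and the second had another O-GlcNAc peak, of score 52.60, at 3290 bp.

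The peaks at chr19:49309898-49310209 (score 2606.88), chr19:49148044-49148663 (score 2379.62) and chr19:49248298-49248832 (score 1946.04) lay near strong ASXL1 peaks without touching them. The gaps to ASXL1 were 3607, 459 and 1088 bp, and the ASXL1 scores there were 581.67, 532.77 and 403.70 in the same order. For each of these 3 the nearest other O-GlcNAc peak was itself shared, at 3779, 638 and 1199 bp.

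Of the next lone peaks, chr11:71162774-71163162 (score 1777.92) and chr18:269671-270085 (score 1539.36) also lay near an ASXL1 peak of high score, with gaps of 476 and 1254 bp and ASXL1 scores of 572.19 and 901.63. The widest lone peak of all, chr17:7117019-7118873 (1855 bp, score 1625.43), was 86 bp from an ASXL1 peak, but that peak scored only 52.48. Likewise chr19:49946078-49947364 (score 1458.44), the third widest, was 249 bp from an ASXL1 peak of score 51.52. These 2 were thus close to ASXL1 peaks near the lowest listed score. The second widest, chr19:36048316-36049614 (1299 bp), scored only 111.43, with ASXL1 3864 bp away.

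The peak at chr19:54682123-54682694 (score 1418.82) was the only one of the 15 highest with FOXK1 within 1 kb, at 881 bp and a score of 79.89, and ASXL1 lay 326 bp away at 85.62. Others had neither partner near. At chr2:17699537-17700079 (score 1386.01) ASXL1 was 19983 bp and FOXK1 691448 bp away, and at chr5:57878347-57879071 (score 1360.36) the distances were 121380 and 170273 bp. The chromosome 5 peak had another O-GlcNAc peak, also alone, only 74 bp away, with a score of 75.61.

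The remaining 2 of the 15 highest were chr7:150689740-150690141 (score 1649.16), with ASXL1 3808 bp away, and chr19:49384927-49385426 (score 1486.73), with ASXL1 6039 bp away. Both of these ASXL1 peaks were weak, at 56.31 and 52.43. Among the 15 in all, 5 had an ASXL1 peak within 1 kb, as did 14.3% of all lone strong peaks, and 10 had one within 5 kb. For 8 of them the nearest ASXL1 peak scored at least 100, as did 33.02% of all ASXL1 peaks. These 8 were not all close, with distances of up to 121380 bp. The nearest other O-GlcNAc peak was shared for 10 of the 15, and for 26.3% of all lone strong peaks.

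**Figure D3:**
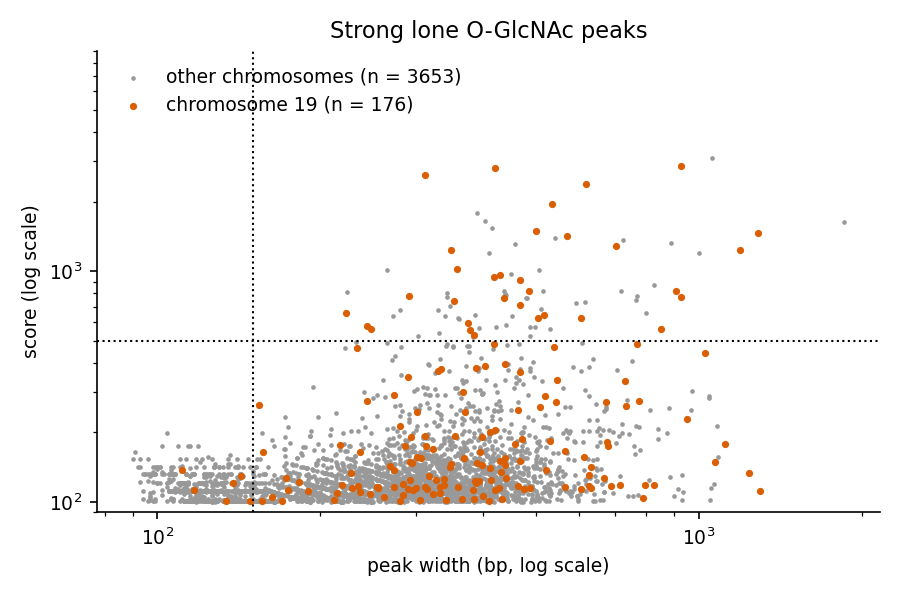
Score of each lone strong O-GlcNAc peak against its width in bp, both on log scales, with the 176 peaks on chromosome 19 in orange and 3653 on other chromosomes in grey. Dotted lines mark 150 bp and a score of 500. Peaks under 150 bp all score under 200, and 32 of the 82 peaks at 500 or more lie on chromosome 19.

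Chromosome 19, the most gene-dense human chromosome, held 8 of the 15 highest lone peaks and 32 of the 82 with a score of at least 500 (39.0%, 29.2 to 49.8). It held 12.5% (11.4 to 13.8) of shared peaks with such scores, 3.12% of all O-GlcNAc peaks and 3.84% (3.27 to 4.51) of the lone strong peaks under 500. Read the other way, 8.06% (5.77 to 11.2) of the chromosome 19 O-GlcNAc peaks of at least 500 were alone, and 1.92% (1.46 to 2.52) elsewhere. These shares are descriptions, since score and overlap are the rule and the score of 500 was set after seeing the data. Neighbouring peaks of 1 library are also not independent.

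Of the 32 high lone peaks on chromosome 19, 22 lay in 2 stretches, where high shared peaks were frequent as well. The stretch chr19:45000001-52000000 held 46 lone strong peaks with a median score of 335, of which 15 scored at least 500, beside 167 shared strong peaks, of which 58 did. The lone share was 21.6% (16.6 to 27.6) of its strong peaks, against 15.9% (13.9 to 18.2) on all of chromosome 19 and 23.0% over all chromosomes of the rule. Of its peaks of at least 500, 20.5% (12.9 to 31.2) were alone, against the 8.06% of the chromosome. The 1 Mb window chr19:49000001-50000000 held 15 lone peaks, the most of any 1 Mb window, with 34 shared strong peaks, 99 ASXL1 peaks and 18 FOXK1 peaks. Farther along, chr19:54000001-57000000 held 14 lone strong peaks with a median score of 507, 7 of them at 500 or more, and 51 shared ones, 30 of them at 500 or more. The lone share there was 21.5% (13.3 to 32.97) of strong peaks, also close to the 23.0% over all chromosomes of the rule. It was 18.9% (9.48 to 34.2) of those of at least 500. These stretches were chosen after the values had been seen.

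A different pattern stood nearer the centromere of the same chromosome. In chr19:28000001-33000000, 35 of 56 strong O-GlcNAc peaks were alone (62.5%, 49.4 to 74.0), against 13.4% (11.5 to 15.6) over the rest of chromosome 19. Their median score was 115, and 1 of them passed 500. The same stretch held 274 lone O-GlcNAc peaks of score under 100, 21 shared strong ones, 304 ASXL1 peaks and 70 FOXK1 peaks. Lone peaks of either strength thus outnumbered shared strong ones there, although peaks of both partners were listed in the stretch. Other 1 Mb windows in which lone strong peaks outnumbered shared ones included chr12:68000001-69000000, with 8 lone and 1 shared, and chr6:15000001-16000000, with 10 lone and 7 shared. Shared strong peaks were not sparse in the second, since chromosome 6 held 5.72 of them per Mb.

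Across chromosomes the lone share of strong peaks ran from 11.3% (8.35 to 15.3) on chromosome 22 to 33.5% (29.5 to 37.7) on chromosome X. Chromosomes 5 (31.1%), 21 (29.0%) and 13 (28.8%) followed X, and chromosomes 17 (15.2%), 16 (15.4%), 11 (15.8%) and 19 (15.9%) stood above 22. The order among X, 5, 21 and 13 lay within their intervals. Lone strong peaks per Mb were most frequent on chromosome 19 (2.98), then 6 (2.04) and 1 (1.97), and ranged from 0.686 to 1.76 on the others.

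Chromosomes X and 19 differed in the kind of lone peak they held. On X, 51 of 171 lone strong peaks were narrow (29.8%, 23.5 to 37.1), the highest score was 280.82, and 0 reached 500. Chromosomes 13, 14 and 15 also had 0 lone peaks at that level, which 2.14% of all lone strong peaks reached. On 19, 6 of 176 were narrow (3.41%, 1.57 to 7.24). Elsewhere the narrow share was lowest on chromosome 22, at 8.11%, and highest on chromosome 18, at 32.8%. The copy number of the chromosomes in this line, and its part in these shares, was not tested.

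**Figure D4:**
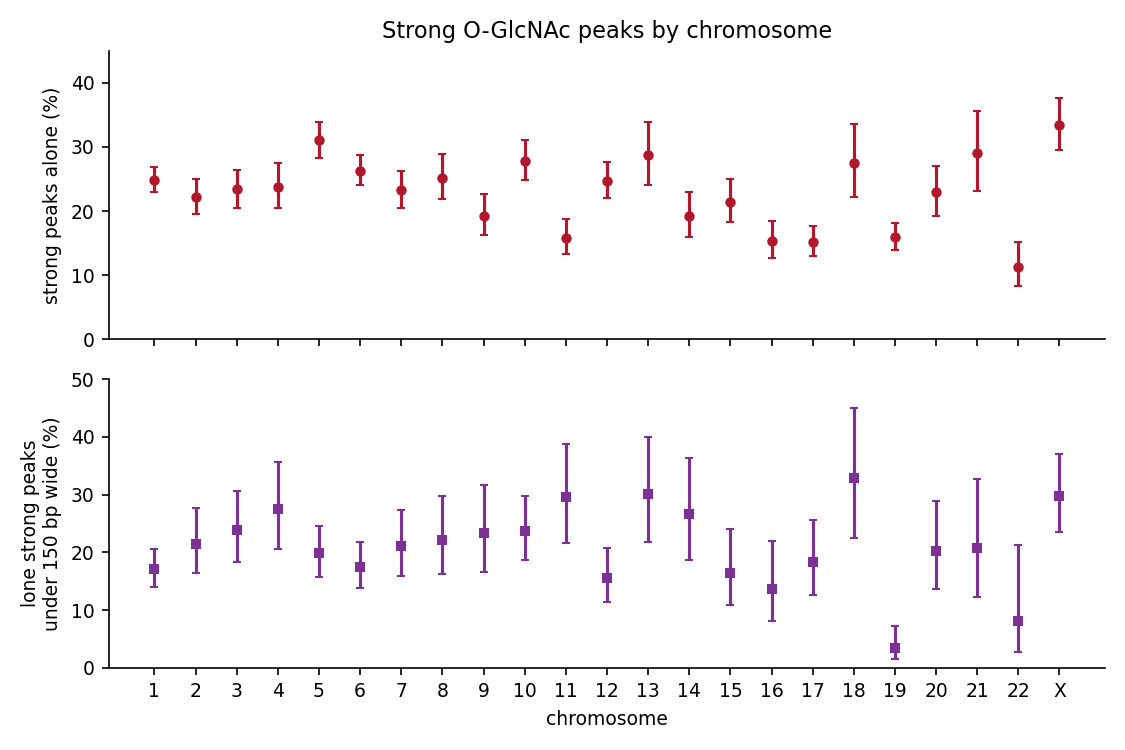
Top, share of strong O-GlcNAc peaks that were alone (%) on each chromosome. Bottom, share of those lone peaks narrower than 150 bp (%). Bars are 95% Wilson intervals. Chromosome X is highest at the top with 33.5%, and chromosome 19 is lowest at the bottom with 3.41%.

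Gaps to ASXL1 and FOXK1 are given as a description, since the rule removed each peak that touched one. The nearest ASXL1 peak was a median of 9035 bp away (quartiles 2489 and 25163), and the nearest FOXK1 peak 37936 bp (11407 and 97482). An ASXL1 or FOXK1 peak lay within 500 bp of 376 lone strong peaks (9.82%, 8.92 to 10.8), within 1 kb of 621 (16.2%, 15.1 to 17.4) and within 10 kb of 2166 (56.6%, 55.0 to 58.1). For lone peaks of score under 100 these shares were 7.58%, 12.5% and 51.2%. The nearer partner was ASXL1 for 3052 of the 3829, from a list that is also the longer of the 2.

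The partners found close by were of ordinary strength. The 546 ASXL1 peaks within 1 kb had a median score of 80.6, against 74.2 for the whole ASXL1 list, and 37.0% of them scored at least 100, against 33.02%. The 170 FOXK1 peaks within 1 kb had a median score of 83.2, against 76.3 for the whole FOXK1 list. By the smaller of the 2 distances, which was that to ASXL1 in each case, the lone peaks farthest from a partner lay at chr2:4213500-4213617 (score 101.06, 559989 bp), chrX:950701-951047 (score 223.69, 546269 bp) and chr8:52259635-52259813 (score 104.32, 533954 bp).

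**Figure D5:**
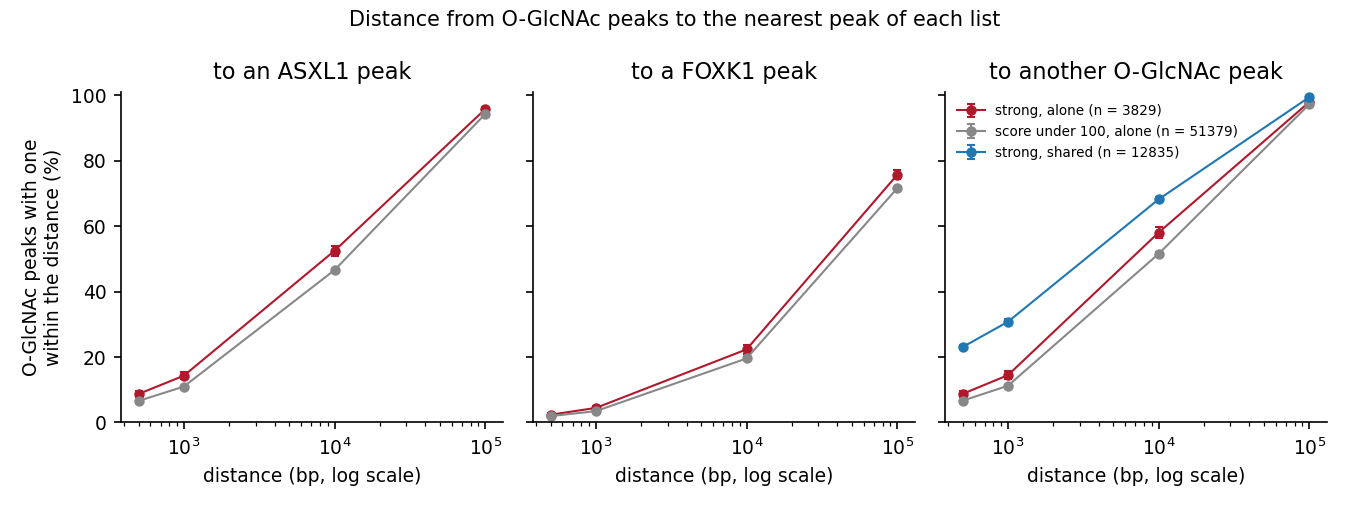
Share of O-GlcNAc peaks (%) with an ASXL1, a FOXK1 or another O-GlcNAc peak within 500 bp, 1 kb, 10 kb and 100 kb (log scale), for lone strong, lone lower-scoring and, on the right, shared strong peaks. Bars are 95% Wilson intervals and lines join the points. Lone strong peaks lie slightly above lone lower-scoring ones, and with another O-GlcNAc peak within 1 kb they reach 14.4% where shared strong peaks reach 30.8%.

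Distances within the O-GlcNAc list itself were not used by the rule. Another O-GlcNAc peak lay within 1 kb of 14.4% (13.4 to 15.6) of lone strong peaks, 30.8% (30.0 to 31.6) of shared strong peaks, 11.2% (10.9 to 11.5) of lone peaks under 100 and 17.5% of all O-GlcNAc peaks. Within 10 kb the shares were 58.0% (56.5 to 59.6), 68.2%, 51.5% and 57.4% in the same order. At scores from 100 to under 150 the shares within 1 kb were 13.5% (12.4 to 14.8) for lone and 33.2% (31.7 to 34.6) for shared peaks. For peaks of at least 500 they were 19.5% (12.4 to 29.4) and 28.03% (26.4 to 29.7), with intervals that overlapped.

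The O-GlcNAc peak nearest to a lone strong peak overlapped ASXL1 or FOXK1 in 26.3% (24.9 to 27.7) of cases, close to the 29.9% of all O-GlcNAc peaks that were shared. Next to shared strong peaks this was so in 54.3% (53.4 to 55.2) and next to lone peaks under 100 in 22.5%. For the 82 lone peaks with a score of at least 500 the share was 39.0% (29.2 to 49.8), and for the narrow ones 16.9% (14.4 to 19.7). Lone peaks of high score thus had shared neighbours more often than narrow ones did.

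In windows of 100 kb, 81.3% (80.01 to 82.5) of lone strong peaks were the only one of their window, and 2.64% (2.18 to 3.19) lay in the 32 windows with 3 or more. In windows of 1 Mb, 51.2% lay in those with 3 or more. In 100 kb windows the shares were 35.2% for the 12835 shared strong peaks and 64.1% for the 51379 lone peaks under 100. These shares depend on how many peaks a class holds, so the classes cannot be compared by them. The highest number of lone strong peaks in a 100 kb window was 4, found 5 times, of which the 3 windows with the highest summed score are described.

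In chr19:55600001-55700000, the peak of score 2850.83 was joined by chr19:55606986-55607275 (113.34), chr19:55625049-55625371 (108.36) and chr19:55657532-55657721 (111.58). In chr21:35400001-35500000, chr21:35402388-35402797 scored 1196.29, and chr21:35434307-35434669, chr21:35463921-35464134 and chr21:35475621-35475734 scored 127.79, 161.39 and 121.05. Each of these 2 windows thus had 1 peak far above its neighbours. In chr19:49800001-49900000, chr19:49834925-49835277 scored 742.56, chr19:49850993-49851431 scored 394.95, and chr19:49843420-49843805 and chr19:49895160-49895486 scored 122.81 and 124.10. There, ASXL1 was at least 11208 bp from all 4.

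The number of lone strong peaks per 5 Mb window went with that of lone O-GlcNAc peaks under 100. Spearman's rho was 0.73 over 599 windows, given as a description because both counts come from 1 library and share its depth and the windows' mappable length. With shared strong peaks rho was 0.63, and with all ASXL1 peaks 0.72. For narrow lone peaks the values were lower, at 0.39, 0.14 and 0.21, from counts that are smaller.

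Gene, base composition, repeat and motif content of these regions were not analysed here, because no genome sequence or annotation of hg19 was used.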

How the data were processed

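Per the submitters' processing notes, Bowtie2 2.0.0 and MACS 1.4 were used with build hg19, with no settings given. Each deposited list holds the peaks of 1 library, not pooled, with a score per peak that the authors' peak caller gave. The deposited scores start at 50. Their 2 decimals and range are those of a negative log10 p multiplied by 10, and scores were not compared between lists. Coordinates are given from position 1. Overlaps, gaps between peak edges and window counts were computed in Python 3.11.15 with pandas 2.3.3 and scipy 1.17.1 and checked on simulated intervals. Densities per Mb used the last peak end of each chromosome as its length.

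The regions and measures were chosen with earlier results of these data known. Named positions are the 15 highest-scoring, the 3 widest and the 3 most distant regions, up to 3 windows of 100 kb with the most of them (ties broken by summed score, a choice made later), and 5 peaks on either side of the score threshold. The width of 150 bp, the score of 500 and the stretches of chromosome 19 were set after seeing the data. Other thresholds, overlap rules and widths were tried. Input libraries were not analysed here.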

Additional observations from a re-analysis of the deposited data

How the results depend on the processing

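The rule's threshold decided the number of regions, as its construction requires. With a score of at least 80 there were 10273 lone peaks, 39.9% of the O-GlcNAc peaks at that level, and with a score of at least 200 there were 314, or 4.33%. Counting peaks within 500 bp as shared left 20.7% of strong peaks alone, requiring 50% of the shorter peak gave 24.1%, and leaving out the widest 1% gave 24.0%. When ASXL1 and FOXK1 peaks under 100 were ignored, 31.3% were alone, so part of the shared class rests on low-scoring partners. The share of lone peaks with another O-GlcNAc peak within 1 kb was 19.1% at a score of 200, 10.98% with the 500 bp rule and 16.3% with the 50% rule. Within 10 kb it was 55.6% at a score of 80 and 55.6% with the 500 bp rule. The share in 100 kb windows with 3 or more was 12.6% at 80, 1.91% at 200 and 1.85% with the 500 bp rule, and 51.2% in windows of 1 Mb. Narrow peaks made up 19.4% to 21.4% under 4 settings and 0 at a score of 200. The chromosome 19 share of high lone peaks, 39.0%, was 28.2% from a score of 300, 48% from 1000 and 39.4% to 40.0% under the overlap and width settings. The narrow and chromosome 19 settings were added after seeing the data. For the number of lone peaks and the narrow share, the overlap and width rules moved no value by over 1.5 times. Alternatives for gene starts, base composition and motifs were not run. No paired analysis was possible because there is only 1 library for each antibody. Unknown depth limits what absence from a list can show.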

Other observations

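Strong O-GlcNAc peaks outside the chromosomes of the rule were few. Of those listed on chromosome Y, 3 of 7 overlapped neither ASXL1 nor FOXK1, and on unplaced or unlocalised contigs 7 of 28 did so. Whether the reads behind these peaks came from those sequences was not tested.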
